A study of Homo sapiens with 6 samples.

Results

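The 49 genes described here encode proteins that take a cell through G2 and mitosis: CDK1 and its cyclins, the mitotic kinases, the kinetochore and spindle checkpoint, condensin, and the factors of spindle assembly and cytokinesis. They were taken by symbol from the deposited gene table. All 49 of 49 were found, each once, among 50868 listed genes. All 49 reached the limit for testing, an average count of 10 in the 6 libraries, as did 15953 genes in all. The libraries were mRNA libraries of HEK-293T cells, a line derived from human embryonic kidney that carries the SV40 large T antigen, with the genotype label WT. The treated group had been kept for 12 h with 10 µM nitidine chloride, a benzophenanthridine alkaloid, and the control group for 12 h with the solvent DMSO, with 3 libraries each. Nothing in the labels says that the libraries came from separate cultures, so p-values measure the spread between libraries, which may be technical.

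Library totals were 13273432 to 15620937 counts with nitidine chloride and 12688093 to 16357992 with DMSO. Of 6 markers that HEK-293T cells are known for, among them VIM and KRT18, all 6 passed the count limit, and their summed level was 1073 to 1399 CPM (the count scaled to a fixed library total) with nitidine chloride and 927.5 to 1196 CPM with DMSO. Leukocyte markers summed to 3.14 to 4.07 CPM with nitidine chloride and 1.85 to 2.76 CPM with DMSO, with 1 of 5 (CD3E) at 0 and 1 of 5 past the limit. Endothelial markers summed to 4.60 to 5.70 CPM with nitidine chloride and 1.37 to 2.02 CPM with DMSO, with 1 of 4 past the limit. Stromal markers, 2 of 4 past the limit, summed to 55.7 to 61.5 CPM with nitidine chloride and 30.7 to 35.4 CPM with DMSO. The part of such cells in the results was not tested.

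Entry into mitosis is driven by CDK1 bound to cyclin B, which CDC25 phosphatases activate and the kinases WEE1 and PKMYT1 hold back. At the kinetochore, the protein platform on centromeric chromatin, the spindle checkpoint keeps the anaphase-promoting complex (APC/C) inactive until every chromosome is attached to microtubules. Condensin compacts the chromosomes, and the passenger complex with Aurora B corrects faulty attachments. Many of these genes are transcribed in late cell cycle phases under control of the MuvB complex with B-MYB and FOXM1, and a short promoter element known as the CHR is a binding site of MuvB.

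Promoters were compared first. The letters of the CHR were not used to choose the genes, but G2/M genes are known to carry them and the letters CCAAT. Their share among these genes is therefore a description and no independent evidence. RefSeq promoter windows on GRCh38.p14, from 250 bases before to 50 bases after each annotated start, were found for 41 of the 49 genes. The letters TTTGAA or TTTAAA, on either strand, were present in 32 of these 41 (78.0%), against 21.2% of the 10990 tested genes with such a window. The letters CCAAT, on either strand, were present in 30 of 41 (73.2%), against 43.3%, and both kinds together in 23 of 41 (56.1%), against 8.97%. GGCGG was present in all 41, but also in 91.9% of the tested genes. The E2F-type letters TTTGGCG or TTTCCCG were present in 5 of 41 (12.2%), against 11.6%. GGCGG and TTTGGCG can overlap by their shared GGCG.

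The following stretches of 30 bases, 5′ to 3′ on the strand of the gene, show the CHR letters in capitals for members of each kind of response. The first 6 are examples from genes that fell, CDK1, CCNB2 and CDCA8 are examples from genes that did not pass the test, and the last 4 are from the genes that rose and hold the letters. In ZWINT the capitals TTCAAA are the letters TTTGAA read on the other strand. The CENPE stretch holds the letters TTTAAA also in lower case, directly before the capitals.
BUB1B (chr15:40161034-40161063, + strand): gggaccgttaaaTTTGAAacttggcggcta
PLK1 (chr16:23678848-23678877, + strand): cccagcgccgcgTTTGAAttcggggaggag
CDC25C (chr5:138331817-138331846, - strand): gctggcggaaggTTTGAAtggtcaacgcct
PRC1 (chr15:90994538-90994567, - strand): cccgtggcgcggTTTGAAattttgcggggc
CCNB1 (chr5:69167108-69167137, + strand): agcagtgcggggTTTAAAtctgaggctagg
CENPE (chr4:103198388-103198417, - strand): ggaaattttaaaTTTAAAggcggggcggcc
CDK1 (chr10:60778453-60778482, + strand): tagcgcggtgagTTTGAAactgctcgcact
CCNB2 (chr15:59105105-59105134, + strand): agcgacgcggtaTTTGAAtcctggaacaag
CDCA8 (chr1:37692481-37692510, + strand): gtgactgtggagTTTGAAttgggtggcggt
CDC25B (chr20:3800068-3800097, + strand): ttcagggcagccTTTAAAattccaagctgc
ZWINT (chr10:56361273-56361302, - strand): gtcgactgtgacTTCAAAgtaatcttaggg
HJURP (chr2:233854629-233854658, - strand): gacgcaaatttgTTTGAAaggcccaatcag
MAD2L1 (chr4:120066807-120066836, - strand): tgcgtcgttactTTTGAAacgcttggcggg

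The letters were centred 20 bases before the annotated start in BUB1B and CDCA8, 26 in PLK1 and CCNB2, 17 in PRC1, 10 in CDK1 and 108 in HJURP, and 27 bases after it in MAD2L1 and 35 in CDC25B. In ZWINT they were 14 or 28 bases before it, depending on which of its annotated starts is taken. The letters were present in 18 of the 20 genes with a window that fell, in 4 of the 7 that rose and in 10 of the 14 that did not pass. A match describes the letters only.

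The 49 genes went both ways after nitidine chloride, with more of them lower. By the quasi-likelihood test of edgeR, with p-values adjusted after Benjamini and Hochberg over all tested genes, 23 of 49 fell and 7 rose at a threshold of 0.05, and the other 19 did not pass. Among all tested genes 51.7% passed, 27.0% lower and 24.7% higher. With library totals in place of TMM scaling, which put the median of all tested genes at 0.12 (log2) instead of 0.01, 18 of the 49 fell and 9 rose, and 57.9% instead of 47.7% of all calls were higher, and with the authors' FPKM values 17 fell and 8 rose. Levels in the libraries did not overlap between the groups for 34 of the 49, of which 26 were lower and 8 higher, while 60.7% of all tested genes did not overlap, 31.0% in the lower and 29.7% in the higher direction. The median log2 fold change of the 49 genes was -0.21 on the TMM scale, against 0.01 for all tested genes, and with the authors' FPKM values it was -0.10 for the 49 genes, against 0.07 for all tested genes. For 4 members the fold change was past 2-fold in either direction: CENPE and BUB1B were lower, and HJURP and MKI67 were higher, MKI67 without passing the test. In bulk RNA, fewer cells in G2 or mitosis and less of an mRNA per cell cannot be told apart. Counts of 9 members (CCNA2, CDC25C, CENPA, NUF2, SMC4, NCAPD2, NCAPG, ANLN and FOXM1) are uncertain, since these genes share bases with another tested gene and the strand setting of the counting is not given in the sources used here. Without them, 19 of 40 fell and 7 rose.

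**Figure D1:**
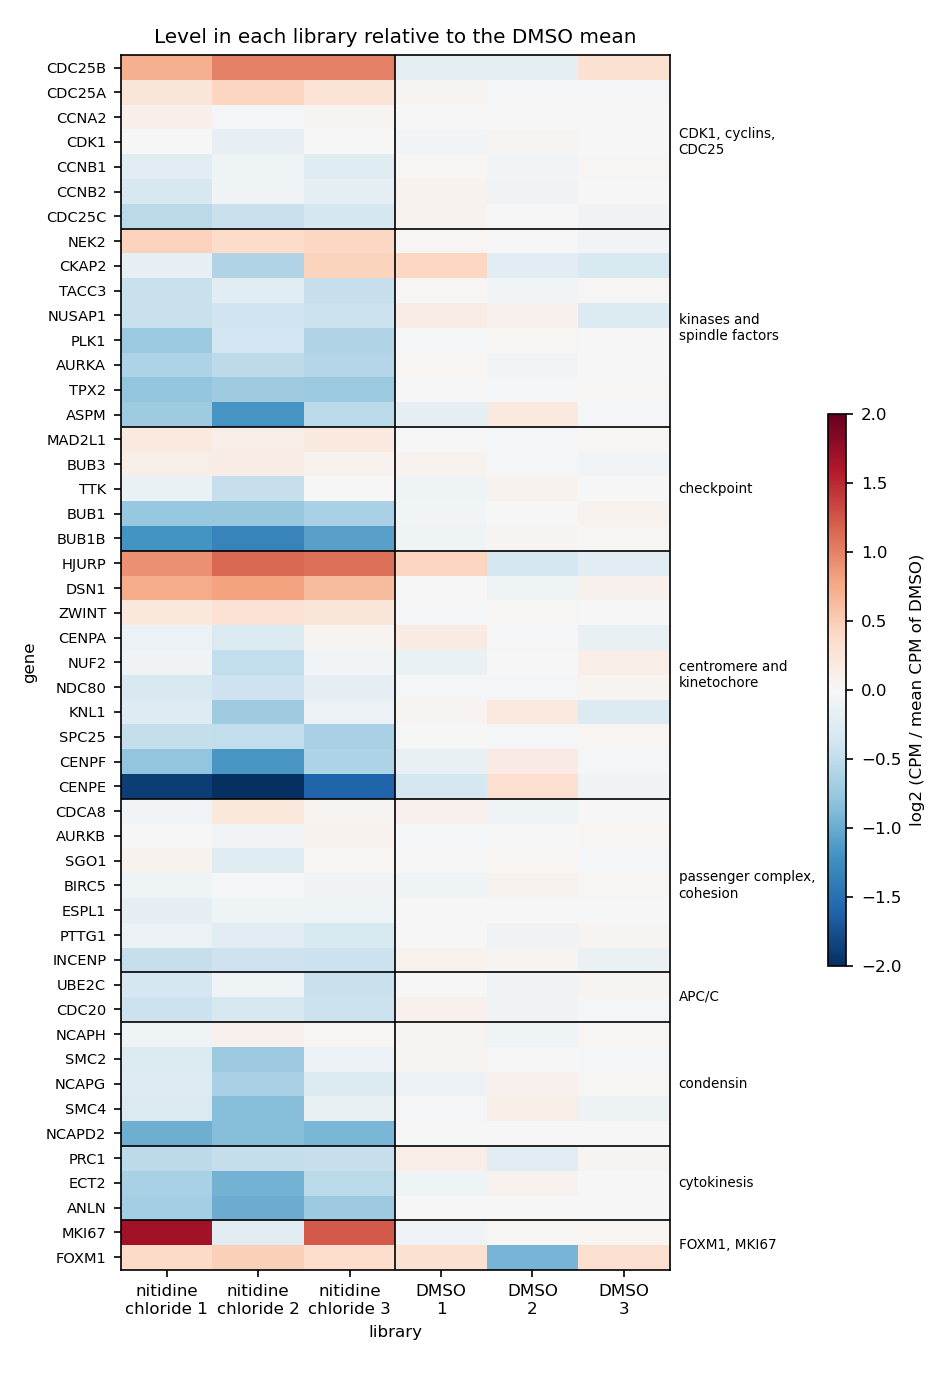
Level of each of the 49 genes (rows, grouped by role) in each library (columns), as the log2 ratio of its CPM to the mean CPM of the 3 DMSO libraries. Blue cells across all 3 nitidine chloride columns mark genes such as CENPE, BUB1B and NCAPD2, red ones CDC25B, HJURP and DSN1. FOXM1 and CKAP2 have single libraries that stand apart, and MKI67 is raised in nitidine chloride replicates 1 and 3 only.

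Among core regulators of mitotic entry, CDC25A and CDC25B rose and CDC25C fell. CDK1 and the cyclins had smaller fold changes, from -0.19 (CCNB2) to 0.04 (CCNA2), and of these CCNB1 was called lower. In this class of 7, 2 (28.6%) rose and 2 (28.6%) fell, and 3 did not pass. These shares were near those of all tested genes, 24.7% higher and 27.0% lower. CDC25B, a phosphatase that activates CDK1 at the start of mitosis, had 156.1, 191.8 and 191.5 CPM with nitidine chloride, against 84.1, 83.8 and 118.0 CPM with DMSO. Every treated library was above every control library, although DMSO replicate 3 stood above the other DMSO libraries. The log2 fold change was 0.91 ± 0.15 (SE), with an adjusted p of 0.00154. CDC25A, which acts at the G1/S border as well as in mitosis, rose with a log2 fold change of 0.32 ± 0.07 (adjusted p = 0.00639). CDC25C, the third phosphatase of the family, had 17.5, 18.6 and 19.9 CPM with nitidine chloride, against 26.6, 25.5 and 24.1 CPM with DMSO. Its levels did not overlap between the groups, and the fold change was -0.44 ± 0.09 (adjusted p = 0.00474). CDC25C shares 6421 bp with FAM53C on the opposite strand, which held 3352.5 counts on average against 313.8 for CDC25C.

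CDK1, the kinase itself, had 171.0, 150.7 and 170.4 CPM with nitidine chloride, against 163.5, 175.7 and 169.2 CPM with DMSO. These ranges overlapped, and the log2 fold change was -0.05 ± 0.07 (adjusted p = 0.606). CCNB1, cyclin B1, had 200.4, 219.3 and 196.8 CPM with nitidine chloride, against 236.8, 224.4 and 236.8 CPM with DMSO, a fold change of -0.18 ± 0.06 at an adjusted p of 0.049. That call was close to the threshold: in 10 of the 13 alternatives at the same threshold CCNB1 did not pass, and its adjusted p ranged from 0.0121 to 0.291. CCNB2, cyclin B2, had -0.19 ± 0.08 (adjusted p = 0.0945) and CCNA2, cyclin A2, 0.04 ± 0.06 (adjusted p = 0.562). Neither passed, and neither p shows that the level stayed the same.

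Mitotic kinases and spindle factors were mostly lower: 6 of 8 (75.0%) fell and 1 (12.5%) rose, against 27.0% and 24.7% of all tested genes. PLK1, the polo-like kinase that acts from mitotic entry to cytokinesis, had 95.9, 122.8 and 105.3 CPM with nitidine chloride, against 156.6, 164.3 and 158.0 CPM with DMSO. The groups were apart, with a log2 fold change of -0.56 ± 0.09 (adjusted p = 0.0016). AURKA, the kinase of centrosomes and spindle poles, fell as well (-0.57 ± 0.06, adjusted p = 1.51e-04), and so did its activator TPX2, with -0.74 ± 0.05 (adjusted p = 2.38e-05). TPX2 had the highest level per gene length of the 49 genes, 62.5 ± 1.11 FPKM with nitidine chloride and 97.1 ± 2.15 FPKM with DMSO (mean ± SD, n = 3). TACC3, which stabilises spindle microtubules together with Aurora A, fell with -0.37 ± 0.08.

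ASPM, a spindle pole protein, had the lowest fold change of these 8 genes. Its level was 189.6, 137.5 and 214.9 CPM with nitidine chloride, against 272.5, 358.0 and 304.4 CPM with DMSO. Replicate 2 was the lowest treated library, and the groups did not overlap (-0.79 ± 0.17, adjusted p = 0.0057). NUSAP1, a microtubule bundling protein, fell with -0.43 ± 0.11. Its adjusted p was 0.0525 without DMSO replicate 2 and 0.0576 with limma on the authors' FPKM values. NEK2, a kinase that separates centrosomes, went the other way, with 111.8, 104.3 and 107.6 CPM with nitidine chloride, against 83.4, 81.9 and 77.9 CPM with DMSO. Its rise of 0.41 ± 0.06 passed at an adjusted p of 8.52e-04. CKAP2, a spindle protein, was uneven in both groups, with 148.9, 110.2 and 227.7 CPM with nitidine chloride, against 222.4, 143.9 and 134.5 CPM with DMSO (-0.04 ± 0.28, adjusted p = 0.918).

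In the spindle checkpoint, the kinase BUB1 and the pseudokinase BUB1B (BubR1) fell while MAD2L1 rose slightly. BUB1B, a subunit of the mitotic checkpoint complex that inhibits the APC/C, lies on chromosome 15 from 40161023 to 40221136. Its level was 50.7, 46.2 and 54.9 CPM with nitidine chloride, against 109.5, 121.5 and 118.7 CPM with DMSO. Each treated library was under every control library, with a log2 fold change of -1.20 ± 0.08 (adjusted p = 1.63e-05), the second lowest of the 49. BUB1 fell with -0.72 ± 0.06 (adjusted p = 6.00e-05). MAD2L1, the checkpoint protein MAD2, had 260.8, 247.4 and 259.5 CPM with nitidine chloride, against 229.5, 220.0 and 231.8 CPM with DMSO. The groups did not overlap, but the rise of 0.17 ± 0.06 had an adjusted p of 0.0336 that lay over 0.05 when any library other than nitidine chloride replicate 2 was left out (0.0729 to 0.0904). BUB3, the partner that brings BUB1 and BUB1B to kinetochores, had 0.11 ± 0.06 and TTK, the kinase MPS1, -0.19 ± 0.12, and neither passed.

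Centromere and kinetochore genes held the lowest and the highest fold change that passed among the 49. In this class of 10, 4 fell and 3 rose, next to 27.0% and 24.7% of all tested genes, and the other 3 did not pass. CENPE, the kinesin that moves chromosomes towards the metaphase plate, lies on chromosome 4 from 103105806 to 103198409 and has, at 92.6 kb, the longest genomic span of the members. Its level was 27.7, 21.5 and 33.7 CPM with nitidine chloride, against 79.7, 128.9 and 96.8 CPM with DMSO. Control libraries spread widely, yet the lowest of them was well above the highest treated library, and the log2 fold change was -1.88 ± 0.21 (adjusted p = 2.23e-04). CENPF, a large protein of the outer kinetochore, fell to 295.2 ± 56.1 CPM with nitidine chloride, against 528.0 ± 57.9 CPM with DMSO (-0.84 ± 0.14, adjusted p = 0.00198).

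HJURP, the chaperone that deposits the centromeric histone CENP-A, lies on chromosome 2 from 233833416 to 233854566. It had 61.3, 72.1 and 69.5 CPM with nitidine chloride, against 44.1, 25.7 and 27.8 CPM with DMSO. All treated libraries were above the control libraries, of which replicate 1 was the highest, and the log2 fold change was 1.06 ± 0.20 (adjusted p = 0.00279). DSN1, a subunit of the MIS12 complex that joins the inner to the outer kinetochore, rose to 116.2 ± 6.68 CPM with nitidine chloride, against 70.0 ± 4.08 CPM with DMSO (0.73 ± 0.07, adjusted p = 1.11e-04). ZWINT, which helps to recruit the RZZ complex, rose with 0.25 ± 0.06 (adjusted p = 0.00755).

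The NDC80 complex, the main microtubule contact of the kinetochore, has its subunits NDC80, NUF2 and SPC25 among the 49 genes, and the fourth subunit, SPC24, in the list of other kinetochore genes. SPC25 fell with -0.54 ± 0.08 (adjusted p = 8.63e-04) and NDC80 with -0.30 ± 0.09 (adjusted p = 0.0209), while NUF2 had -0.19 ± 0.13 and did not pass (adjusted p = 0.265). SPC24 had 36.4 ± 4.75 CPM with nitidine chloride and 35.5 ± 2.45 CPM with DMSO, with a fold change of 0.04 ± 0.11 (adjusted p = 0.811). For NDC80 the adjusted p was 0.071 without DMSO replicate 2 and 0.0765 without DMSO replicate 3. It was 0.109 with library totals in place of TMM scaling and 0.0844 with limma on the authors' FPKM values. KNL1, the scaffold to which BUB1 and BUB1B bind, had -0.34 ± 0.17 (adjusted p = 0.13), and CENPA, the centromeric histone, -0.11 ± 0.13 (adjusted p = 0.513). Without nitidine chloride replicate 2, the fold change was -0.06 for NUF2, -0.19 for KNL1 and -0.03 for CENPA. CENPA overlaps SLC35F6 on the same strand over 16943 bp.

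**Figure D2:**
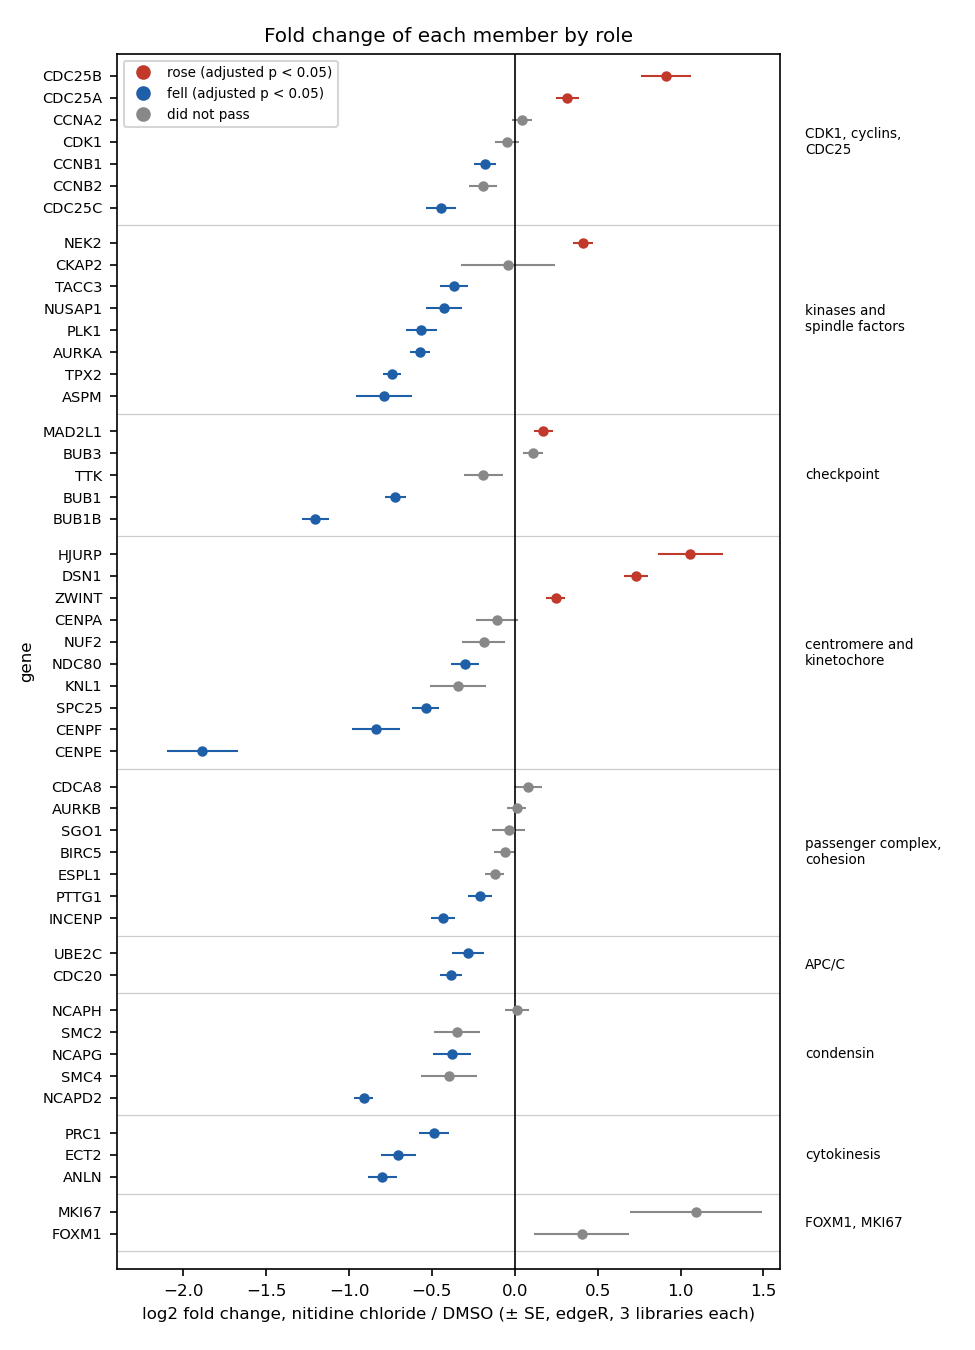
Log2 fold change of nitidine chloride over DMSO (x axis) for each of the 49 genes (y axis, grouped by role), with bars for the SE of edgeR's fit to 3 libraries per group. Genes in blue fell, genes in red rose and genes in grey did not pass the adjusted threshold, with values from -1.88 for CENPE to 1.09 for MKI67, which did not pass.

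Of the genes of the chromosomal passenger complex and of sister chromatid cohesion, 2 of 7 (28.6%) fell and 5 did not pass, next to 27.0% of all tested genes that fell. INCENP, the scaffold of the passenger complex, had 115.4, 119.6 and 118.7 CPM with nitidine chloride, against 167.0, 165.8 and 145.0 CPM with DMSO. Its groups were apart (-0.43 ± 0.07, adjusted p = 0.00157). The partners of INCENP did not pass, with 0.01 ± 0.06 for the kinase gene AURKB, -0.06 ± 0.06 for BIRC5, encoding survivin, and 0.08 ± 0.09 for CDCA8, encoding borealin. SGO1, a protector of centromeric cohesion, had -0.04 ± 0.10, and ESPL1, the protease separase that cuts cohesin, -0.12 ± 0.06. PTTG1, the separase inhibitor securin, had 69.6, 65.3 and 61.0 CPM with nitidine chloride, against 75.8, 72.3 and 78.6 CPM with DMSO. The groups were apart with -0.21 ± 0.07 (adjusted p = 0.0429), but PTTG1 did not pass in 11 of the 13 alternatives at the same threshold, where the adjusted p reached 0.252.

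Both genes that act with the APC/C fell, next to 27.0% of all tested genes. CDC20, the activator of the complex in early mitosis, had 150.9, 162.7 and 150.6 CPM with nitidine chloride, against 215.1, 193.2 and 198.6 CPM with DMSO. No library of one group reached into the other, and the log2 fold change was -0.39 ± 0.07 (adjusted p = 0.00203). UBE2C, the E2 enzyme that starts ubiquitin chains for the complex, had 90.0, 106.8 and 83.7 CPM with nitidine chloride, against 114.2, 108.4 and 118.4 CPM with DMSO. Its fold change of -0.28 ± 0.10 (adjusted p = 0.0404) did not pass when any library other than nitidine chloride replicate 2 was left out (0.0614 to 0.118). UBE2C also did not pass with a replicate block (0.0744), with library totals in place of TMM scaling (0.117) or with limma on the authors' FPKM values (0.12).

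Condensin subunits differed among themselves. NCAPD2, a HEAT-repeat subunit of condensin I on chromosome 12 from 6493356 to 6531955, had 159.8, 173.4 and 165.8 CPM with nitidine chloride, against 314.0, 311.2 and 314.0 CPM with DMSO. Libraries within each group lay close together, and the log2 fold change of -0.91 ± 0.06 (adjusted p = 9.61e-06) was the third lowest of the 49. NCAPG, the second HEAT-repeat subunit, had 145.5, 111.1 and 143.7 CPM with nitidine chloride, against 160.4, 183.4 and 176.4 CPM with DMSO. It fell with -0.38 ± 0.11 (adjusted p = 0.0238), a call lost without DMSO replicate 2 (adjusted p = 0.102) or without DMSO replicate 3 (0.0648). The NCAPG call was also lost with library totals in place of TMM scaling (0.0956) and with limma on the authors' FPKM values (0.109). The ATPase subunits SMC2 and SMC4 had -0.35 ± 0.14 (adjusted p = 0.0702) and -0.40 ± 0.17 (adjusted p = 0.0833), and did not pass. Without nitidine chloride replicate 3 both passed, with adjusted p of 0.0241 for SMC2 and 0.0328 for SMC4, as they did in DESeq2, with 0.0434 for SMC2 and 0.0398 for SMC4. Without nitidine chloride replicate 2, in which SMC2 was at -0.53 and SMC4 at -0.64 (log2) relative to the mean of the other nitidine chloride libraries, the fold change was -0.19 for SMC2 and -0.21 for SMC4, and neither passed. NCAPH, the kleisin that closes the ring, had 113.1 ± 6.82 CPM with nitidine chloride and 112.0 ± 5.87 CPM with DMSO (0.01 ± 0.07, adjusted p = 0.879).

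All 3 cytokinesis genes fell, next to 27.0% of all tested genes. ANLN, the scaffold anillin of the contractile ring, had 109.9, 88.4 and 106.3 CPM with nitidine chloride, against 177.2, 175.4 and 177.2 CPM with DMSO. Control libraries were nearly equal and all above the treated ones (-0.80 ± 0.09, adjusted p = 1.88e-04). ECT2, the exchange factor that activates RHOA at the cleavage site, fell with -0.70 ± 0.11 (adjusted p = 9.58e-04). PRC1, which bundles microtubules of the central spindle, had 126.2, 131.5 and 132.1 CPM with nitidine chloride, against 199.0, 158.3 and 189.5 CPM with DMSO, a fold change of -0.49 ± 0.09 (adjusted p = 0.00278).

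FOXM1, the transcription factor that activates many G2/M genes, had 136.6, 146.3 and 134.3 CPM with nitidine chloride, against 129.4, 55.4 and 131.0 CPM with DMSO. DMSO replicate 2 stood far under the other DMSO libraries, and although the groups did not overlap, the fold change of 0.40 ± 0.29 did not pass (adjusted p = 0.273). Without that library it was 0.12 (adjusted p = 0.219). MKI67, the proliferation antigen Ki-67, had 483.3, 128.7 and 353.3 CPM with nitidine chloride, against 143.7, 153.2 and 155.6 CPM with DMSO, values picked after they were seen, for their spread. In replicate 2 the treated level was under all control levels, and in the other treated libraries it was above them. The log2 fold change was 1.09 ± 0.40 with an adjusted p of 0.0523, and without nitidine chloride replicate 2 it was 1.47 with an adjusted p of 2.76e-04. Without nitidine chloride replicate 1 it was 0.68 with an adjusted p of 0.178.

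**Figure D3:**
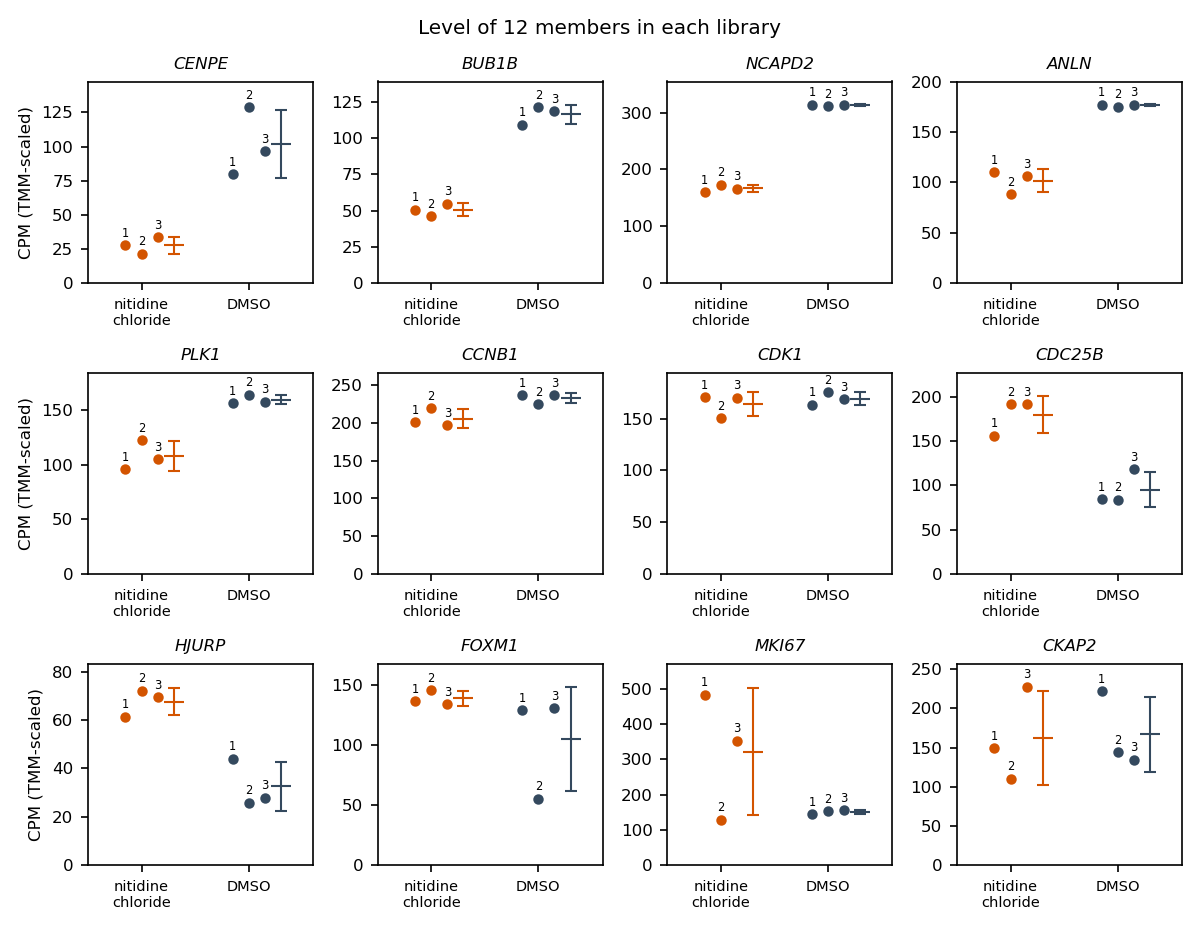
TMM-scaled CPM (y axes from 0) of 12 members in each of the 3 nitidine chloride and 3 DMSO libraries, with replicate numbers beside the points and the mean ± SD to their right. CENPE, BUB1B, NCAPD2, ANLN and PLK1 are lower in every treated library, CDC25B and HJURP are higher, and CDK1 overlaps. A single DMSO library sets the spread of FOXM1, while the 3 nitidine chloride libraries of MKI67 lie far apart.

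Summed over the 49 genes, the level was 6338, 5786 and 6495 CPM with nitidine chloride, against 7312, 7339 and 7258 CPM with DMSO. Nitidine chloride replicate 2 was the lowest library, and 5 of the 7 members with the longest mRNAs were lower in it. These are the members whose longest protein-coding transcript in GENCODE release 29 has 6 kb or more: ASPM, CENPE, CENPF, KNL1 and MKI67 were lower in that library, at -1.70 to -0.47 (log2), and BUB3 (0.05) and ESPL1 (0.06) were not. Their median level in that library was -0.51 (log2) relative to the mean of the other nitidine chloride libraries, while it was -0.04 for the 2503 tested genes of that length. DMSO replicate 1 relative to the other DMSO libraries had -0.10 for these members and -0.04 for the tested genes. The part of transcript length or RNA quality in the results was not tested. Without nitidine chloride replicate 2, 23 of the 49 fell and 8 rose, and CENPE had -1.73, CENPF -0.70 and ASPM -0.62, all still past the threshold.

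Per gene length, members covered a wide range of levels in DMSO, from 3.14 FPKM for KNL1 to 97.1 FPKM for TPX2. After TPX2 came CDC20 with 56.7 ± 1.46 FPKM in nitidine chloride and 68.9 ± 3.63 FPKM in DMSO libraries, and CCNB1 with 54.6 ± 2.17 FPKM in nitidine chloride and 57.5 ± 1.62 FPKM in DMSO libraries. HJURP, which rose, was among the lowest, with 8.86 ± 0.65 FPKM in nitidine chloride and 3.97 ± 1.21 FPKM in DMSO libraries. The lengths behind the FPKM are the authors' own. FPKM were not TMM-scaled, so small differences between the groups on that scale can differ in sign from those in CPM. Across the 49 genes the Spearman correlation of fold change with DMSO level was -0.23, a description of genes that share their libraries.

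Fold change varied with genomic span, the stretch of chromosome that a gene covers with its introns. Spans ran from 4.05 kb for ZWINT to 92.6 kb for CENPE, with a median of 29.2 kb, close to the 27.3 kb of all tested genes. Across the 49 members the Spearman correlation of log2 fold change with span was -0.59, and across all 15953 tested genes it was -0.47, in both cases over genes of the same 6 libraries. Of the 11 members spanning 50 to 100 kb, 9 fell and 0 rose, with a median of -0.74. Those that did not pass were KNL1 and NUF2. Spans are those deposited, and in NUF2 a RefSeq start used for the promoters lay inside the span. The same held for SPC25 and CDC25C of this class, which fell, and outside this class for CDC25B and CENPA, among others. For these genes the span may exceed the stretch that was transcribed. Among the 2535 tested genes of that class 39.8% fell and 10.45% rose, with a median of -0.21. Of 21 members between 20 and 50 kb, 9 fell and 3 rose, with a median of -0.30, against 12.15% and 30.8% of 3875 tested genes and a median of 0.14. Of 11 members between 10 and 20 kb, 2 fell and 3 rose, with a median of 0.08, against 6.30% and 44.2% of 2396 tested genes and a median of 0.30. Of 3 members between 5 and 10 kb, 1 fell and 0 rose, with a median of 0.01. Among the 1644 tested genes of that class 6.69% fell and 44.0% rose, with a median of 0.31. Of 3 members under 5 kb, CDC20 and UBE2C fell and ZWINT rose, with a median of -0.28. Among the 2718 tested genes of that class 12.29% fell and 23.4% rose, with a median of 0.09. No member spans 100 kb or more, the classes where 75.0% to 89.3% of the tested genes fell.

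Set beside the tested genes whose span lay between 0.8 and 1.25 times their own, 40 of the 49 members (81.6%) had a fold change under the median of those genes, against 50.6% of all tested genes by the same count. The members lay lower than this median by 0.35 (log2) at the median, and 18 of them by more than 0.5. CENPE lay at -1.45 from the median of 1471 such genes, of which 0.34% were lower, BUB1B at -1.07, NCAPD2 at -0.99, PLK1 at -0.89 and AURKA at -0.81. Members more than 0.5 above it were MKI67 (0.92), HJURP (0.82) and CDC25B (0.66). For CDC25B the deposited span may exceed the stretch that was transcribed. All 5 checkpoint genes, all 5 condensin genes, all 7 passenger and cohesion genes and all 3 cytokinesis genes were under the median, as were 6 of the 10 centromere and kinetochore genes. Genes of all levels and biotypes entered these medians, so they adjust for span alone.

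**Figure D4:**
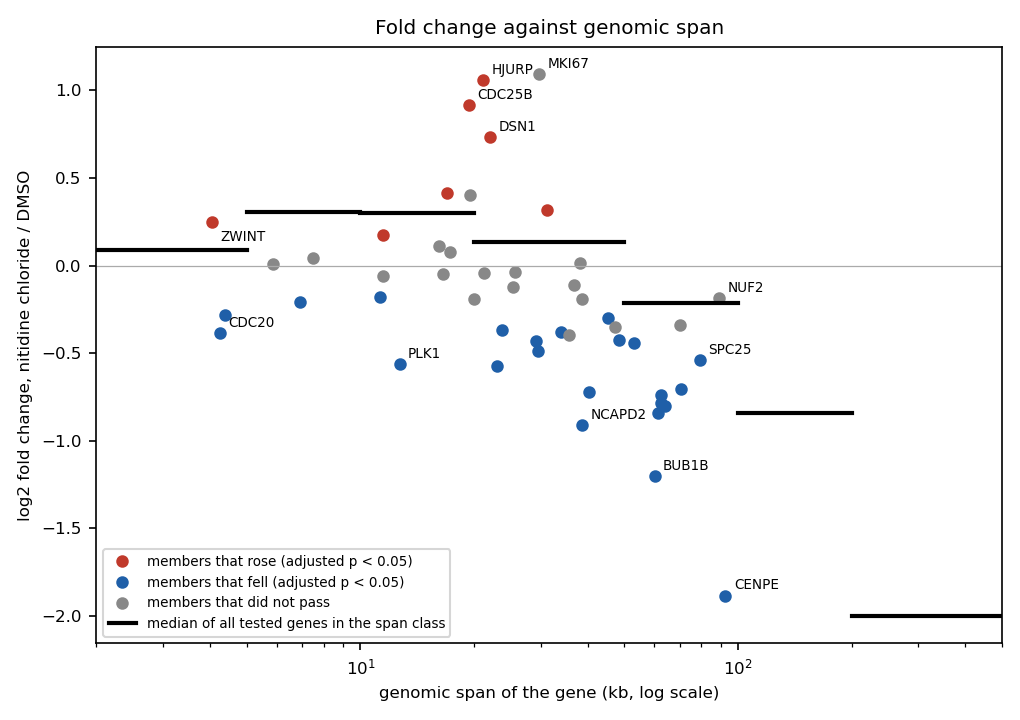
Log2 fold change of nitidine chloride over DMSO (y axis) of the 49 members against genomic span in kb (x axis, log scale), with black bars for the median of all tested genes in each span class, the outer classes being open to the axis ends. Most members lie under the bar of their class, among them CENPE and BUB1B, while HJURP, CDC25B, DSN1 and MKI67 lie above it.

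Other genes of the same processes, 112 in 6 lists, all passed the count limit, and 46 of them (41.1%) were lower and 17 (15.2%) higher past the threshold, against 27.0% and 24.7% of all tested genes. Their median was -0.16 (log2). By the count against genes of similar span, 84 of the 112 (75.0%) were under the median, against 50.6% of all tested genes. Of 27 other centromere and kinetochore genes, 11 fell and 4 rose. CENPP, a subunit of the inner kinetochore spanning 295.1 kb, fell with -2.64 ± 0.15, and KNTC1, encoding the RZZ subunit ROD, with -1.58 ± 0.09, while SKA1, a microtubule-binding kinetochore protein, rose with 0.69 ± 0.09 and MIS18A, a CENP-A loading factor, with 0.55 ± 0.08. HJURP and MIS18A, which act in the same CENP-A loading step, were both higher.

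Genes of cohesin and condensin II had 10 of 16 lower (62.5%) and 3 higher (18.75%), with the lowest median of the lists, -0.59. Among all tested genes 27.0% fell and 24.7% rose. In this list STAG1, STAG2, PDS5A, PDS5B and NIPBL span 155.1 to 462.5 kb. Of all tested genes, 75.0% fell at 100 to 200 kb and 89.3% at 200 kb and more. The part of span in the calls and median of this list was not tested. STAG1, a cohesin subunit spanning 416.2 kb, fell with -3.13 ± 0.11 and PDS5B, a cohesin regulator spanning 191.6 kb, with -2.30 ± 0.11, whereas CDCA5, encoding the cohesion factor sororin (17.9 kb), rose with 0.85 ± 0.08 and MAU2, a cohesin loading factor, with 0.42. Of 17 other APC/C genes, 4 (23.5%) fell and 5 (29.4%) rose, shares near those of all tested genes, with -1.16 ± 0.06 for ANAPC1, the largest subunit, and -0.94 ± 0.07 for CDC27, and with 0.61 ± 0.09 for ANAPC7 and 0.45 ± 0.09 for ANAPC16. Of 14 genes that control mitotic entry, 5 fell and 1 rose. WEE1, the kinase that inhibits CDK1, fell to 60.8 ± 5.43 CPM with nitidine chloride, against 97.0 ± 13.9 CPM with DMSO (-0.67 ± 0.12, adjusted p = 0.00222), CHEK2, a checkpoint kinase, fell with -0.70 ± 0.09, and PKMYT1, the second inhibitory kinase of CDK1, had 0.37 ± 0.13 with an adjusted p of 0.045 although its groups overlapped.

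Of 11 subunits and regulators of MuvB and DREAM, the complexes that act at the CHR, 6 (54.5%) fell and 0 rose. Among all tested genes 27.0% fell and 24.7% rose. The genes of this list that fell span 56.8 kb (TFDP1) to 151.7 kb (DYRK1A). Among all tested genes, 39.8% fell at 50 to 100 kb and 75.0% at 100 to 200 kb. LIN52 (116.4 kb) did not pass, nor did LIN37, E2F4, RBBP4 and MYBL2, which span 6.16 to 49.5 kb. The part of span in these calls was not tested. DYRK1A, the kinase that starts DREAM assembly (151.7 kb), fell with -0.99 ± 0.12, and RBL2, the pocket protein p130, fell to 55.2 ± 3.60 CPM with nitidine chloride, against 97.5 ± 3.42 CPM with DMSO (-0.82 ± 0.07, adjusted p = 5.54e-05). Of 27 other spindle and cytokinesis genes, 10 fell and 4 rose. CIT, the citron kinase of the midbody (191.5 kb), fell with -1.81 ± 0.08 and the chromokinesin gene KIF4A (130.7 kb) with -1.27 ± 0.09, and the augmin subunit genes HAUS3 and HAUS5 rose with 0.70 ± 0.10 for HAUS3 and 0.34 for HAUS5.

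**Figure D5:**
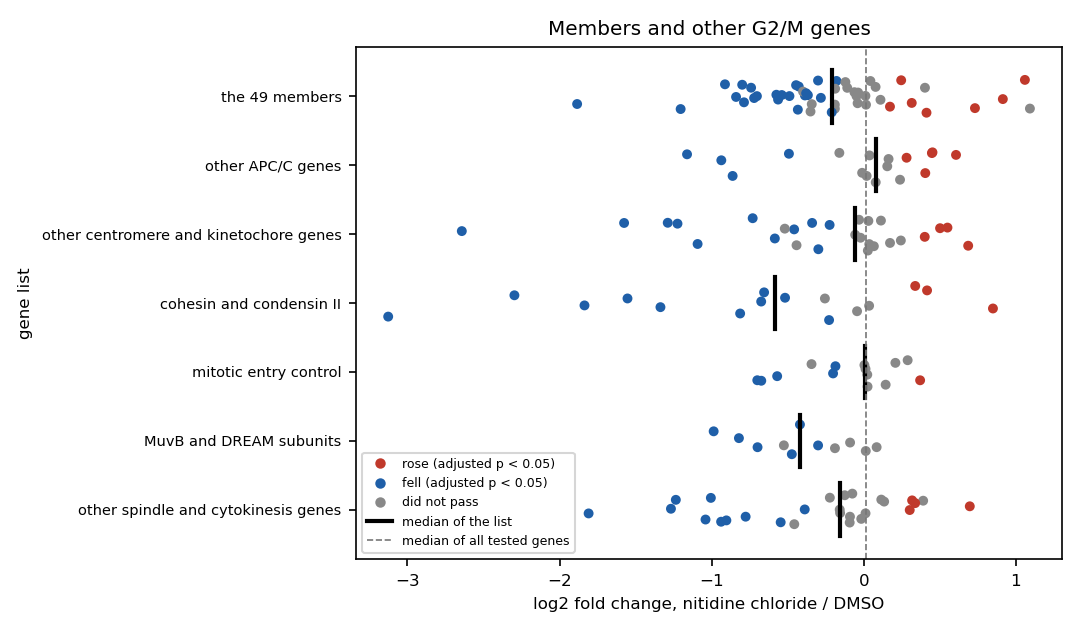
Log2 fold change of nitidine chloride over DMSO (x axis) of the 49 members and of 6 lists of other G2/M genes (rows; points are jittered vertically), coloured by whether the gene rose, fell or did not pass, with a black bar for the median of each list and a dashed line for that of all tested genes. The medians run from -0.59 for cohesin and condensin II to 0.08 for other APC/C genes, and each list except that of MuvB and DREAM holds genes that rose as well as genes that fell.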

How the data were processed

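Counts per gene were deposited by the authors as whole numbers, per the file headers and the values, with FPKM beside them, which the authors scaled to gene length and library total, per the file headers. The submitters' processing notes name the tools HISAT2 2.0.4 and StringTie 1.3.0 without saying what each did. Not given in the sources used here are the counter of reads, its setting for strand, the genome build and the gene models. Positions of all 49 members were identical to GENCODE release 29 on GRCh38.

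Genes averaging 10 counts or more per library were tested with edgeR 4.0.16 (quasi-likelihood test, TMM scaling, no covariate; R 4.3.3), nitidine chloride against DMSO, with Benjamini-Hochberg adjustment over all 15953 tested genes and a threshold of 0.05. Levels are CPM after TMM scaling, computed here. Marker sums are CPM by library total. As SE, the log2 fold change over the root of its F value is given. The procedure was tested on simulated counts in which few genes changed, in random directions and without regard to span. That setting differs from these data, so it cannot show how the scaling behaves when 51.7% of the tested genes are called.

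The members, the lists, the rule for named genes and the tests were chosen with earlier results of these data known. Values per library are given for the members with the highest and lowest fold change past the threshold in each role, and for CDK1, CCNB1, PLK1 and FOXM1. CKAP2 and MKI67 were added after their values were seen. Of each other list, up to 2 genes per direction with the most extreme fold changes are named. The alternatives tried were a block for replicate number, leaving out each library, other filters, limma-voom and limma on log2(FPKM + 1) (limma 3.58.1), DESeq2 1.42.0, scaling by library size alone and a threshold of 0.01. Of the members, 9 share bases with another tested gene, and a count without them was added after the data had been seen. Plots were drawn with matplotlib 3.10.9.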

Additional observations from a re-analysis of the deposited data

How the results depend on the processing

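No member that passed the test changed direction under any alternative run. Of 30 members that passed, 23 also passed in each of the 13 alternatives at the threshold of 0.05, and the exceptions were CCNB1, NUSAP1, NDC80, PTTG1, UBE2C, NCAPG and MAD2L1. Counts of members lower ranged from 17 to 23 and of members higher from 6 to 9, and all stayed within 1.5 times of the reported counts. So did the number of calls in either direction among all tested genes and among the other G2/M genes, but the tested genes called higher were 2616 at a threshold of 0.01, against 3936 at 0.05, a change of just over 1.5 times. With a replicate block, 20 members were lower and 6 higher. The replicate numbers gave no sign of pairing: correlations of same-numbered libraries were 0.001, -0.055 and 0.04, and those of other pairs -0.084 to 0.085. With 3 libraries per group, such values cannot exclude that libraries of the same number shared a batch. At a threshold of 0.01, 17 were lower and 6 higher. Leaving out single libraries gave 17 to 23 lower and 6 to 8 higher. Without the 9 members that share bases with another tested gene, 19 were lower and 7 higher. With 3 libraries per group, small changes such as those of CCNB1, PTTG1 and MAD2L1 lie at the limit of what the spread between libraries allows to be called.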
